A study of Homo sapiens with 63 samples.

Results

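The ID genes and BMP-SMAD targets described here are 10 genes chosen by name: ID1, ID2, ID3, ID4, SMAD6, SMAD7, SMAD9, MSX2, BAMBI and INHBB. All 10 had a row in the deposited table of 13962 genes. ID3 and INHBB were on the list because an earlier look at these libraries had placed them among the largest rises with 10 µM Helicon 4 against DMSO at 6 h. The Helicon 4 values of all 10 genes against DMSO at 6 h, and against Helicon 4-neg at 10 µM and 6 h, are therefore given as a description with no test. So are the ID3 and INHBB comparisons that share the 6 h DMSO libraries. All 10 genes were chosen with earlier results of these data known, so their counts beside all genes are a description.

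The cells were COLO320DM, an established human colorectal adenocarcinoma line grown in RPMI with fetal bovine serum. They received Helicon 4, a helicon peptide directed at β-catenin and the TCF transcription factors, or Helicon 4-neg, each at 1, 3 or 10 µM, or DMSO, the solvent control. Poly(A) RNA was sequenced after 6, 24 and 48 h in 21 groups of 3 replicates, which made 63 libraries. How Helicon 4-neg differs in structure from Helicon 4 is not given in the sources used here. All groups came from this 1 cell line, and the labels call the replicates biological without saying whether each came from its own culture. A p-value here therefore covers the spread among these libraries and may cover technical spread alone.

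BMP ligands bring receptor kinases together at the cell surface, and the receptors phosphorylate SMAD1, SMAD5 and SMAD9, which enter the nucleus with SMAD4 and bind GC-rich elements near their target genes. The ID genes are classical targets of this pathway. ID proteins are helix-loop-helix proteins without a DNA-binding region, which pair with basic helix-loop-helix factors and keep them off DNA. SMAD6, SMAD7 and BAMBI are targets that feed back on the signal, and in the intestine BMP signalling is known for opposing the Wnt-driven stem cell programme of the crypt base.

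The stretches below lie just before the RefSeq start sites (GRCh38.p14) of ID1, SMAD6 and INHBB, which were higher with Helicon 4 in the results that follow, and of BAMBI, which was lower. They are printed 5′ to 3′ and end at the start site or where the first exon of GENCODE 29 begins. Capitals mark GGCGCC and GGAGCC, the GC-rich words that BMP-activated SMADs are known to bind, on either strand (GGAGCC reads GGCTCC on the other). The ID1 stretch is chr20:31605039-31605282 (plus strand), the SMAD6 stretch chr15:66701986-66702227 (plus strand), the INHBB stretch chr2:120345886-120346135 (plus strand) and the BAMBI stretch chr10:28677271-28677341 (plus strand).
ID1: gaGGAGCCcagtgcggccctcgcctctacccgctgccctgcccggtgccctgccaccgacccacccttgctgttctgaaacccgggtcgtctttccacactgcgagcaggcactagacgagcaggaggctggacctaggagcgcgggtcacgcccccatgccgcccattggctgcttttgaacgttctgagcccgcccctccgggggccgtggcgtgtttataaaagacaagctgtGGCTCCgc
SMAD6: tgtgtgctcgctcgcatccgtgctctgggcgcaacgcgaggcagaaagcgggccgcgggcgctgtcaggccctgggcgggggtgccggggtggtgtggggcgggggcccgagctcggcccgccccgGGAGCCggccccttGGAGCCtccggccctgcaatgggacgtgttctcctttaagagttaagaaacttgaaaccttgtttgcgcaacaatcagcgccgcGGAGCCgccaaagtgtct
INHBB: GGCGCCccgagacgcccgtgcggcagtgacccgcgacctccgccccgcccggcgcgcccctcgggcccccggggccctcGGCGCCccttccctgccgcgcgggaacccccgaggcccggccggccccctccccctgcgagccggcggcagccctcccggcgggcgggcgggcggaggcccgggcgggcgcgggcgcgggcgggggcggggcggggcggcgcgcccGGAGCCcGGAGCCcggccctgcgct
BAMBI: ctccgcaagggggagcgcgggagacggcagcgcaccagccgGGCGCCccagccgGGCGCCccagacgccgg
Over the full window of 250 bases before the start site, GGAGCC was found in 8 of 12 windows of the 10 genes and GGCGCC in 2 of 12, those of BAMBI and INHBB, with overlapping matches allowed. SMAD7 had 3 windows, of which 1 held GGAGCC, and each other gene had 1. The window of ID2, which was higher with Helicon 4 at 48 h, held neither word, and nor did that of MSX2. The window of SMAD9 held GGAGCC 3 times. Between the compounds, SMAD9 was called higher with Helicon 4 at 3 and 10 µM, but not at 1 µM, after 24 h. At 48 h it was called higher at 1 and 3 µM and not at 10 µM. Of 35116 such windows in the RefSeq table, 30.6% held GGAGCC and GGCGCC was in 16.4% of them. These shares were not matched for GC content or for overlap with exons. The window of ID3 and 1 of those of SMAD7 had 0 bases outside exons, that of ID2 had 48 and that of BAMBI 71. The word bound by TCF and LEF factors, CTTTGAT, was in 0 of these 12 windows and in 2.26% of all windows. The GC content of the 10 genes' windows ran from 48.0% to 89.6%, and a match here is a description of letters, not a bound site.

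Recovered depth ran from 16628595 to 32860333 reads per library (median 22123187). Levels below are the deposited normalised values, on which 1 read was worth 0.0301 to 0.0622, and log2 differences are on the log2(level + 1) scale, which understates changes of low genes. AXIN2, a feedback gene of Wnt signalling, stood at 48.0 ± 1.9 with 10 µM Helicon 4, 173 ± 0.84 with 10 µM Helicon 4-neg and 158 ± 11 with DMSO at 48 h (SD, n = 3 each). NKD1, another such gene, stood at 10.7 ± 0.84, 37.5 ± 1.3 and 36.7 ± 1.0 in the same order of groups. Of 10 intestinal epithelial markers, 7 had a row and 6 of these had a median level of at least 1. CDX2, the intestinal homeobox factor, had a median of 3330 and KRT8 a median of 161, while EPCAM was at 2.08 and CDH1, which encodes E-cadherin, at 0.504. Of 8 neuroendocrine markers, 5 had a row, and HDC, the histamine-making enzyme, was the highest at a median of 131.

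Of the 63 libraries, 15, spread over 10 groups, stood apart by fibroblast collagen RNA. COL1A2 lay between 15.3 and 21.5 in these 15 libraries and between 0 and 1.41 in the other 48. They were replicates 1 and 2 of 1 µM Helicon 4, replicate 3 of 3 µM and replicate 1 of 1 µM Helicon 4-neg at 6 h. At 24 h they were replicates 2 and 3 of 10 µM Helicon 4, replicates 1 and 2 of 10 µM Helicon 4-neg, replicate 3 of 1 µM Helicon 4-neg and replicate 1 of DMSO. At 48 h they were replicates 2 and 3 of 3 µM Helicon 4, replicates 1 and 2 of 3 µM Helicon 4-neg and replicate 3 of DMSO. The 10 µM groups at 48 h held none of them, so the 48 h comparison of both compounds at 10 µM leads below. Where 1 of the 10 genes lost a call named below without these libraries, its value without them is given.

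Per kilobase of transcript, ID3 was the most abundant of the 10 genes, with a median over all libraries of 33.9 per kb, followed by BAMBI at 19.8 and ID2 at 5.84. ID1 had 2.37 per kb, INHBB 2.05, SMAD9 1.77, SMAD6 1.2 and MSX2 1.19. ID4 had 0.527 per kb and SMAD7 0.178 per kb. SMAD7 rested on 4 to 75 reads per library, ID4 on 12 to 65 and ID1 on 16 to 140, against 422 to 2436 for ID3. All 10 genes passed the filter on low levels at each time. In GENCODE 29 on GRCh38, ID3 (ENSG00000117318) spans chromosome 1, 23557918 to 23559794 (minus strand), ID2 (ENSG00000115738) chromosome 2, 8678845 to 8684453 (plus), ID1 (ENSG00000125968) chromosome 20, 31605283 to 31606515 (plus) and ID4 (ENSG00000172201) chromosome 6, 19837386 to 19840684 (plus). SMAD6 (ENSG00000137834) spans chromosome 15, 66702228 to 66782848 (plus), SMAD7 (ENSG00000101665) chromosome 18, 48919853 to 48952052 (minus) and SMAD9 (ENSG00000120693) chromosome 13, 36844831 to 36920765 (minus). BAMBI (ENSG00000095739) spans chromosome 10, 28677342 to 28682939 (plus), MSX2 (ENSG00000120149) chromosome 5, 174724533 to 174730893 (plus) and INHBB (ENSG00000163083) chromosome 2, 120346143 to 120351808 (plus).

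At 48 h, with 10 µM of each compound, 6 of the 10 genes were higher with Helicon 4 than with Helicon 4-neg: ID1, ID2, ID3, SMAD6, SMAD7 and INHBB. BAMBI was lower, and ID4, SMAD9 and MSX2 did not pass the test. Over all 13478 genes tested, 26.7% were called higher and 27% lower in this comparison, so a change was common, and the median log2 difference was 0.65 over the 10 genes and 0.01 over all genes. In bulk RNA, fewer cells expressing a gene and less RNA per cell cannot be told apart.

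ID3, whose protein binds E proteins, had levels of 78.9, 80.2 and 75.4 with 10 µM Helicon 4 at 48 h, against 23.7, 22.9 and 25.8 with 10 µM Helicon 4-neg. DMSO libraries had 53.6, 51.9 and 57.2. The groups did not overlap, and DMSO lay between both compounds. The log2 difference between the compounds was 1.66 (SE 0.052, 95% interval 1.55 to 1.76, limma adjusted p = 1.3e-17).

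ID2, an ID family member known for roles in progenitor cells, had 24.8, 25.0 and 27.2 with 10 µM Helicon 4 at 48 h, against 7.59, 7.27 and 9.75 with Helicon 4-neg, and 14.4, 15.2 and 17.0 with DMSO. Again each Helicon 4 library was above each DMSO library and each Helicon 4-neg library below. The log2 difference between the compounds was 1.54 (SE 0.093, interval 1.35 to 1.74, limma adjusted p = 1.7e-12). ID1, the family member most often used as a readout of BMP signalling, had 3.90, 4.36 and 3.63 with Helicon 4, against 1.27, 1.25 and 0.852 with Helicon 4-neg. The compounds did not overlap, but the DMSO libraries, at 2.80, 2.86 and 4.23, overlapped with Helicon 4. The log2 difference between the compounds was 1.23 (SE 0.15, interval 0.92 to 1.54, limma adjusted p = 3.1e-07). ID4, the fourth member, had 1.87, 1.67 and 1.07 with Helicon 4 and 1.41, 1.19 and 0.852 with Helicon 4-neg, so the groups overlapped and the interval of the log2 difference ran from -0.14 to 0.60.

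**Figure D1:**
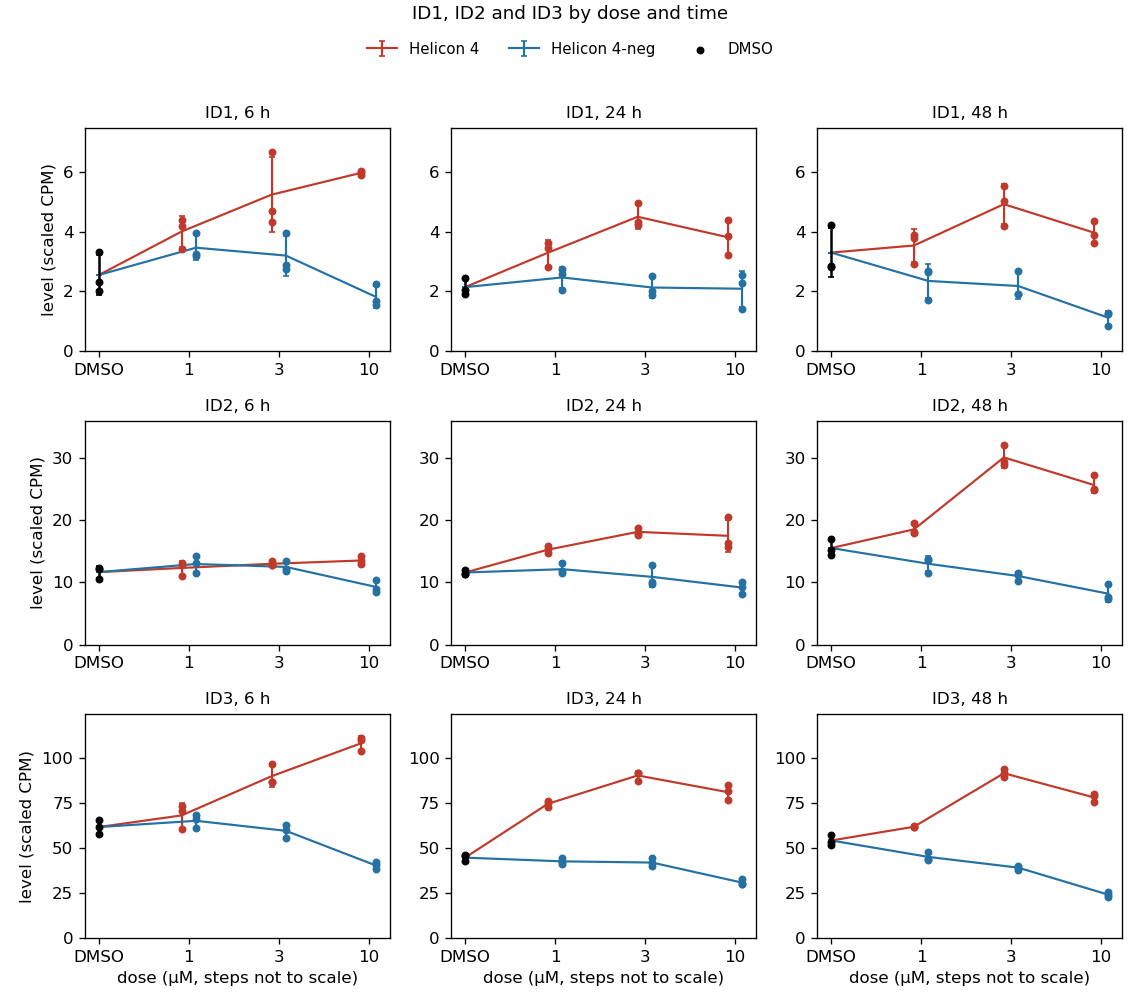
Levels of ID1, ID2 and ID3 (normalised value, y axis) by dose (x axis, DMSO at the left) at 6, 24 and 48 h; points are libraries, lines join group means and bars are SD (n = 3). At 48 h and 10 µM the Helicon 4 libraries of ID3 lie between 75.4 and 80.2 and the Helicon 4-neg libraries between 22.9 and 25.8, with DMSO between them.

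At 10 µM and 48 h, ID2, ID3 and SMAD6 were called higher with Helicon 4 and lower with Helicon 4-neg, each against DMSO. ID1 was not called for Helicon 4 against DMSO, and SMAD7 and INHBB were not called for Helicon 4-neg against DMSO. In all, 6 of the 10 genes were lower with Helicon 4-neg than with DMSO, where 8.55% of all genes were called lower, and 0 of 10 were higher, where 10.4% were (0 at an unadjusted p under 0.05 in limma, and 0 in edgeR). They were ID1, ID2, ID3, SMAD6, MSX2 and BAMBI. The log2 difference was -1.14 for ID3 (SE 0.052, limma adjusted p = 8.2e-13), -1.01 for ID1 (SE 0.15, adjusted p = 0.00041) and -0.85 for ID2 (SE 0.093, adjusted p = 1.1e-05). Without the collagen-rich libraries, of which this comparison held DMSO replicate 3, these 3 calls stood, at -1.10, -0.86 and -0.79 in the same order of genes, and that of SMAD6 was lost. SMAD6 was at -0.38 (adjusted p = 0.027) with all libraries and at -0.40 (adjusted p = 0.052) without the collagen-rich libraries. Without replicate 2 of 10 µM Helicon 4-neg it was at -0.39 (adjusted p = 0.065), without replicate 3 at -0.34 (adjusted p = 0.094), without DMSO replicate 1 at -0.31 (adjusted p = 0.098) and without DMSO replicate 3 at -0.40 (adjusted p = 0.059).

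With Helicon 4-neg, ID levels at 48 h went down along the dose series. ID3 averaged 54.2 with DMSO, 45.1 at 1 µM, 39.2 at 3 µM and 24.1 at 10 µM, with a slope over 1, 3 and 10 µM of -0.88 log2 units per 10-fold dose (SE 0.052, limma adjusted p = 3.6e-10). ID2 averaged 15.5 with DMSO, 13.0 at 1 µM, 11.0 at 3 µM and 8.20 at 10 µM, with a slope of -0.62 (SE 0.093, adjusted p = 0.00093). The slopes of ID1 (-0.66, adjusted p = 0.027), MSX2 (-0.66, adjusted p = 0.0031) and BAMBI (-0.46, adjusted p = 0.00063) were also negative, so that 5 of 10 genes had a falling slope, where 1.11% of all genes had one, and 0 a rising slope, where 1.14% did. At 24 h, 3 of 10 genes had a falling slope (9.9% of all genes) and 0 a rising one (9.87%): ID3 at -0.46 (adjusted p = 0.00013), SMAD9 at -0.44 (adjusted p = 0.0071) and ID2 at -0.37 (adjusted p = 0.015). Without the collagen-rich libraries the 24 h slopes of SMAD9 (-0.50, adjusted p = 0.16) and ID2 (-0.28, adjusted p = 0.29) were not called, and ID2 also lost its call without replicate 2 at 10 µM (-0.30, adjusted p = 0.072) or replicate 1 at 1 µM (-0.32, adjusted p = 0.076). Without 1 of the 3 libraries of 10 µM Helicon 4-neg, or without replicate 2 or 3 at 1 µM, the ID1 slope lost its call (values from -0.71 to -0.56, adjusted p between 0.053 and 0.11).

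With Helicon 4 the means of ID1, ID2 and ID3 stood above DMSO at each dose after 24 and 48 h, and the highest mean was at 3 µM, not at 10 µM. ID4 did not follow this order at 24 h, where it averaged 1.39 with DMSO, 1.13 at 1 µM, 1.58 at 3 µM and 1.85 at 10 µM. ID3 at 48 h averaged 54.2 with DMSO, 61.9 at 1 µM, 91.6 at 3 µM and 78.2 at 10 µM. ID2 at 48 h averaged 15.5 with DMSO, 18.5 at 1 µM, 30.1 at 3 µM and 25.7 at 10 µM. Against DMSO at 10 µM and 48 h, ID2 (log2 difference 0.69, limma adjusted p = 9.5e-07) and ID3 (0.52, adjusted p = 1.1e-08) passed the test, while ID1 did not (0.22, interval -0.09 to 0.53). At 3 µM, ID1 passed too (0.47, adjusted p = 0.011), and it lost this call without replicate 1 of 3 µM Helicon 4 (0.39, adjusted p = 0.054), DMSO replicate 1 (0.39, adjusted p = 0.055) or DMSO replicate 2 (0.40, adjusted p = 0.052). The 3 µM Helicon 4 group held 2 collagen-rich libraries, and its ID3 levels were 93.9 and 89.3 in these and 91.6 in the other.

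At 24 h and 10 µM, 7 of 10 genes were higher with Helicon 4 than with Helicon 4-neg and 2 were lower, where 25.1% and 27.6% of all 13213 genes tested were called. ID3 had 76.7, 85.1 and 81.5 with Helicon 4, against 32.6, 30.1 and 29.8 with Helicon 4-neg, and 45.4, 45.9 and 42.8 with DMSO, with no overlap. Its log2 difference between the compounds was 1.37 (SE 0.052, limma adjusted p = 1.2e-14), that of ID2 0.86 (SE 0.098, adjusted p = 2.9e-07) and that of ID1 0.65 (SE 0.14, adjusted p = 0.00052). Without the collagen-rich libraries, which leaves 1 library per compound whose spread is taken from the other groups, the values were 1.33 (adjusted p = 5.5e-08) for ID3, 0.65 (adjusted p = 0.0041) for ID2 and 0.80 (adjusted p = 0.0064) for ID1. The calls of SMAD9 (0.33, adjusted p = 0.15) and MSX2 (-0.09, adjusted p = 0.77) were lost there, and those of the other 7 genes stood.

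Against DMSO at 10 µM and 24 h, 6 genes were higher with Helicon 4, where 25.1% of all genes were, and 2 were lower, where 27.6% were. The 6 were ID1 (log2 difference 0.61), ID2 (0.54), ID3 (0.84), SMAD6 (0.42), SMAD7 (0.52) and INHBB (0.98), and the 2 were BAMBI (-0.98) and MSX2 (-0.60). MSX2 lost its call without the collagen-rich libraries (-0.39, limma adjusted p = 0.13). With Helicon 4-neg, 3 genes were lower than with DMSO (6.16% of all genes) and 0 were higher (5.55%; 0 at an unadjusted p under 0.05, 0 in edgeR). These were ID3 (-0.52, adjusted p = 1.6e-05), SMAD9 (-0.59, adjusted p = 0.0017) and ID2 (-0.31, adjusted p = 0.044). Without the collagen-rich libraries only ID3 of these 3 kept its call, with ID2 at -0.20 (adjusted p = 0.56) and SMAD9 at -0.51 (adjusted p = 0.23). ID2 was also at adjusted p = 0.052 with the replicate number as a block and lost its call without each of 10 libraries in turn, with values from -0.33 to -0.24 and adjusted p from 0.05 to 0.17.

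At 6 h, ID3 had 111, 110 and 104 with 10 µM Helicon 4, against 42.1, 40.7 and 38.3 with 10 µM Helicon 4-neg and 65.6, 57.8 and 61.7 with DMSO. ID1 had 6.02, 5.89 and 5.98 with Helicon 4, against 2.24, 1.69 and 1.53 with Helicon 4-neg and 2.33, 2.01 and 3.31 with DMSO. For both genes every 10 µM Helicon 4 library lay above every library of 10 µM Helicon 4-neg and of DMSO. With 3 µM Helicon 4, ID1 reached 6.67. The log2 difference between the compounds at 10 µM was 1.40 for ID3 and 1.31 for ID1. ID2, at 14.2, 12.9 and 13.5 with Helicon 4, 8.99, 10.4 and 8.48 with Helicon 4-neg and 12.1, 10.6 and 12.3 with DMSO, differed by 0.50 between the compounds. The ID2 difference at 10 µM was thus 0.50 at 6 h, 0.86 at 24 h and 1.54 at 48 h. That of ID3 was 1.40, 1.37 and 1.66 at the same times. ID3, unlike ID2, was put on the list for its rise in these 6 h libraries, so their courses from 6 h cannot be set against each other. Against DMSO at 10 µM and 6 h, the median log2 difference was -0.01 over the 10 genes and -0.01 over all genes.

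At 6 h and 3 µM, ID3 was higher and BAMBI lower with Helicon 4 than with Helicon 4-neg. These libraries were outside the comparison that placed ID3 and INHBB on the list. All 10 genes were, however, chosen with earlier results of these data known. Of all 13057 genes tested, 0.475% were called higher and 1.16% lower. ID3 had 96.7, 86.6 and 86.5 with 3 µM Helicon 4, against 60.1, 55.8 and 62.9 with 3 µM Helicon 4-neg, a log2 difference of 0.59 (SE 0.066, limma adjusted p = 7.3e-06). BAMBI had 33.5, 31.0 and 32.5, against 52.3, 49.3 and 54.1, a log2 difference of -0.66 (SE 0.051, adjusted p = 4.4e-08). Neither pair of groups overlapped, and without the collagen-rich libraries the values were 0.62 for ID3 and -0.63 for BAMBI, both still called. ID1 was at 0.56 (adjusted p = 0.059). At 1 µM and 6 h, 0 of 10 genes passed in limma, at an unadjusted p under 0.05 or in edgeR, with limma calling 0.00766% of all genes higher and 0.0536% lower.

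Helicon 4-neg also moved some of these genes within 6 h, when few other genes passed the test. At 10 µM against DMSO, 34 of 13057 genes were called, 0.115% of all genes lower and 0.146% higher. Of the 8 genes tested, SMAD9 and MSX2 were lower and 0 were higher, also at an unadjusted p under 0.05 or in edgeR. SMAD9, a signal-carrying SMAD that is itself a BMP target, had 11.1, 13.4 and 11.5 with Helicon 4-neg, against 21.2, 19.3 and 16.6 with DMSO (log2 difference -0.63, SE 0.079, limma adjusted p = 0.00031). MSX2, a homeobox factor induced by BMP in many tissues, had 2.15, 2.7 and 2.92, against 5.61, 4.69 and 4.85 (-0.76, SE 0.12, adjusted p = 0.0058), and its adjusted p was 0.058 at -0.67 without replicate 1 of Helicon 4-neg. Neither gene's groups overlapped. Along the Helicon 4-neg doses at 6 h, ID3 had a slope of -0.68 (SE 0.066, adjusted p = 3.5e-06), SMAD9 of -0.65 (SE 0.079, adjusted p = 0.00017) and MSX2 of -0.65 (SE 0.12, adjusted p = 0.045), 3 of 10 genes where 0.046% of all genes had a falling slope, and 0 rose, where 0.0153% did. The MSX2 slope lost its call without each of 16 libraries in turn, with values from -0.72 to -0.55 and adjusted p up to 0.49, and without the collagen-rich libraries (-0.72, adjusted p = 0.12).

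Of the inhibitory SMADs, SMAD7, which blocks the receptors of both BMP and TGF-β, had the larger change at 48 h. It had 2.60, 2.77 and 3.49 with 10 µM Helicon 4, against 0.656, 0.759 and 0.639 with 10 µM Helicon 4-neg and 0.622, 0.371 and 0.413 with DMSO. Every Helicon 4 library lay above every other, and Helicon 4-neg and DMSO did not overlap but were not called apart (0.20, interval -0.15 to 0.55). The log2 difference between the compounds was 1.22 (SE 0.17, limma adjusted p = 1.5e-06) and that of Helicon 4 against DMSO was 1.42 (SE 0.17, adjusted p = 1.4e-07). Along the Helicon 4 doses at 48 h, SMAD7 averaged 0.469 with DMSO, 1.55 at 1 µM, 2.30 at 3 µM and 2.95 at 10 µM, a slope of 0.65 (SE 0.17, adjusted p = 0.0048). At 6 h it lay between 0.252 and 0.782 with 10 µM Helicon 4 and between 0.447 and 0.97 with DMSO, with overlap.

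SMAD6, which acts mainly on the BMP branch, had 13.6, 14.1 and 13.5 with 10 µM Helicon 4 at 48 h, against 8.25, 8.13 and 7.57 with Helicon 4-neg and 11.8, 9.97 and 10.2 with DMSO. The 3 groups did not overlap. The log2 difference between the compounds was 0.72 (SE 0.12, limma adjusted p = 1.5e-05), and that of Helicon 4 against DMSO was 0.34 (adjusted p = 0.014), which lost its call without DMSO replicate 2 (0.30, adjusted p = 0.059). SMAD9 showed another order: at 48 h and 10 µM it was at 6.88, 7.54 and 7.25 with Helicon 4 and 6.28, 7.54 and 7.51 with Helicon 4-neg, with overlap and an interval of the log2 difference from -0.18 to 0.23. At 1 µM and 48 h, SMAD9 was higher with Helicon 4 (11.6, 11.4 and 10.5) than with Helicon 4-neg (7.39, 6.87 and 9.14), by 0.48 (adjusted p = 0.00063), and its slope along the Helicon 4 doses was -0.57 (SE 0.10, adjusted p = 0.00013).

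**Figure D2:**
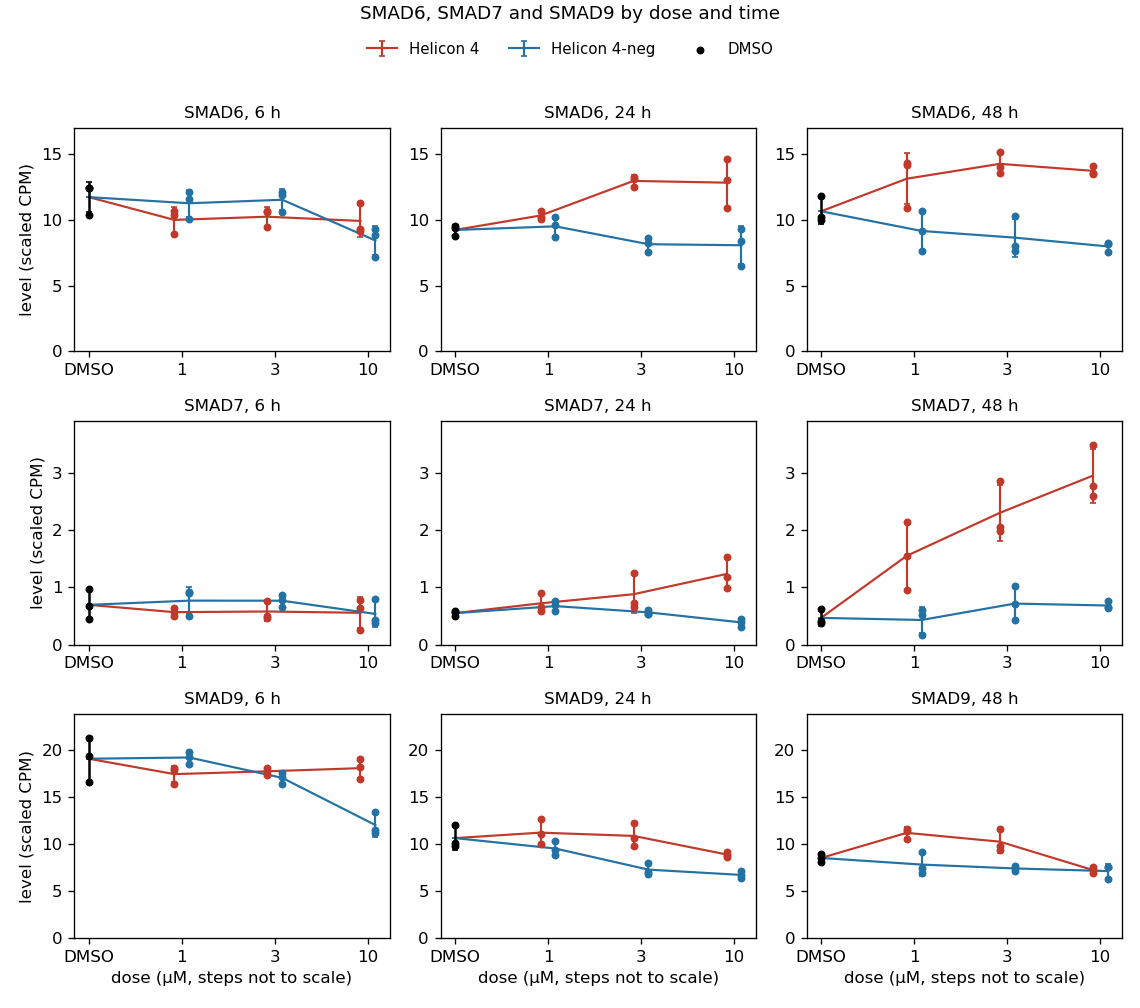
Levels of SMAD6, SMAD7 and SMAD9 (normalised value, y axis) by dose (x axis, DMSO at the left) at 6, 24 and 48 h; points are libraries, lines join group means and bars are SD (n = 3). SMAD7 at 48 h reaches 2.60 to 3.49 with 10 µM Helicon 4 and stays between 0.639 and 0.759 with 10 µM Helicon 4-neg, while the SMAD9 groups overlap there.

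Against DMSO at 10 µM and 48 h, BAMBI and MSX2 were lower with Helicon 4, where ID2 and ID3 were higher. BAMBI encodes a receptor-like protein without a kinase that dampens BMP and TGF-β signalling, and it is also known as a target of β-catenin. It had 16.4, 17.6 and 14.8 with 10 µM Helicon 4 at 48 h, against 36.6, 37.5 and 34.4 with Helicon 4-neg and 49.2, 53.7 and 47.8 with DMSO. The 3 groups did not overlap, with Helicon 4-neg between the others. The log2 difference was -1.11 between the compounds (SE 0.066, limma adjusted p = 1.4e-12), -1.57 for Helicon 4 against DMSO (SE 0.066, adjusted p = 2e-15) and -0.46 for Helicon 4-neg against DMSO (SE 0.066, adjusted p = 0.00021). BAMBI was lower with Helicon 4 than with Helicon 4-neg at each dose at 24 and 48 h, by -0.88 at 1 µM, -0.98 at 3 µM and -1.0 at 10 µM after 24 h. At 6 h it averaged 51.7 with DMSO, 52.0 at 1 µM, 32.3 at 3 µM and 20.8 at 10 µM Helicon 4.

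MSX2 at 48 h was lower with both compounds at 10 µM than with DMSO. It had 1.49, 1.48 and 1.35 with Helicon 4 and 1.5, 1.79 and 1.65 with Helicon 4-neg, against 2.99, 2.97 and 3.56 with DMSO. The log2 difference from DMSO was -0.77 for Helicon 4 (SE 0.11, limma adjusted p = 3.7e-06) and -0.66 for Helicon 4-neg (SE 0.11, adjusted p = 0.001), and that between the compounds was -0.12 (interval -0.35 to 0.12). At 1 µM the compounds differed: MSX2 had 1.66, 1.18 and 1.39 with Helicon 4, against 3.24, 3.01 and 3.27 with Helicon 4-neg (-0.80, SE 0.11, adjusted p = 7.6e-06). At 24 h and 10 µM the difference between the compounds (-0.41, adjusted p = 0.02) lost its call without replicate 2 of Helicon 4 (-0.28, adjusted p = 0.12) and without replicate 1 of Helicon 4-neg (-0.32, adjusted p = 0.097).

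INHBB encodes the βB subunit of activins, TGF-β family ligands that signal through SMAD2 and SMAD3. The order of its means along the Helicon 4 doses differed between 6 and 48 h. The 6 h order is a description with no test, since the 10 µM Helicon 4 libraries at 6 h placed INHBB on the list. At 6 h it averaged 6.07 at 1 µM, 7.80 at 3 µM and 11.8 at 10 µM, and the libraries of 10 µM had 12.7, 10.8 and 12.0, against 5.64, 6.70 and 6.91 with Helicon 4-neg. At 48 h it averaged 22.1 at 1 µM, 14.6 at 3 µM and 8.71 at 10 µM, with DMSO at 6.30, and the slope was -1.25 (SE 0.10, limma adjusted p = 2.8e-09). The libraries at 48 h had 22.2, 21.4 and 22.8 at 1 µM, 14.5, 12.6 and 16.6 at 3 µM and 9.21, 8.45 and 8.46 at 10 µM, so the doses did not overlap. Helicon 4-neg libraries at 48 h lay between 4.42 and 6.16 over all 3 doses. The log2 difference between the compounds at 48 h was 1.86 at 1 µM (SE 0.10, adjusted p = 2.4e-12), 1.36 at 3 µM (SE 0.10, adjusted p = 1.4e-10) and 0.58 at 10 µM (SE 0.10, adjusted p = 5e-05).

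**Figure D3:**
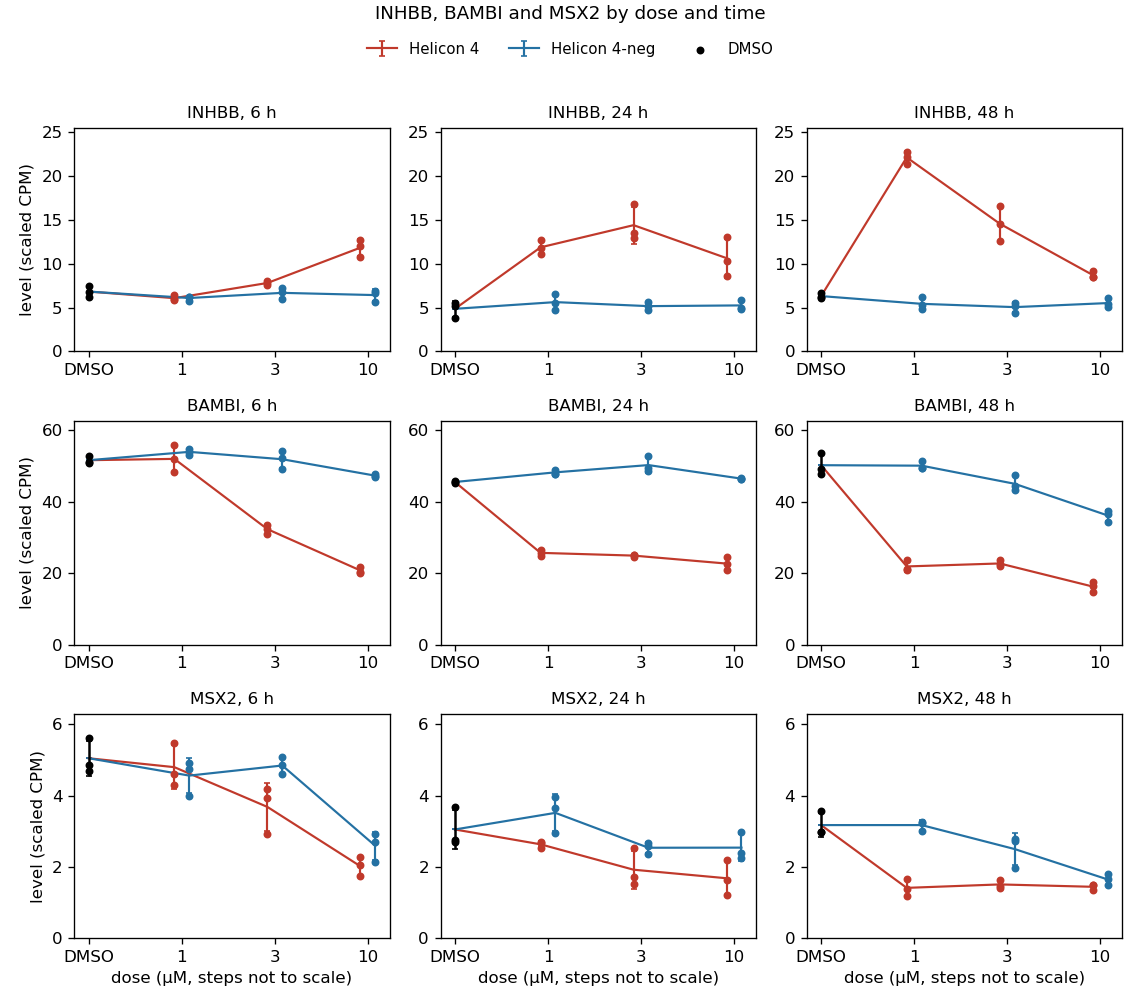
Levels of INHBB, BAMBI and MSX2 (normalised value, y axis) by dose (x axis, DMSO at the left) at 6, 24 and 48 h; points are libraries, lines join group means and bars are SD (n = 3). INHBB with Helicon 4 averages 6.07 at 1 µM and 11.8 at 10 µM after 6 h, and 22.1 at 1 µM and 8.71 at 10 µM after 48 h. The 10 µM Helicon 4 libraries at 6 h placed INHBB on the list, and its 6 h order was not tested.

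At the lower doses more of these genes passed at 48 h than at 24 h. With 1 µM, Helicon 4 against Helicon 4-neg showed 3 of 10 genes higher and 1 lower at 24 h, where 11.4% and 14.1% of all genes were called, and 8 higher and 2 lower at 48 h, where 15.8% and 20.1% were. With 3 µM the counts were 6 higher and 1 lower at 24 h (19.6% and 23.3% of all genes) and 7 higher and 2 lower at 48 h (25.9% and 26.6%). ID4 was called higher at 1 µM and 48 h, with 1.97, 2.05 and 1.75 with Helicon 4, against 1.37, 0.941 and 1.03 with Helicon 4-neg (0.47, limma adjusted p = 0.042). It lost this call without each of the 3 Helicon 4 libraries or replicate 2 or 3 of Helicon 4-neg (0.41 to 0.52, adjusted p from 0.059 to 0.13). ID1 at 1 µM and 48 h (0.44, adjusted p = 0.025) lost its call without replicate 2 or 3 of Helicon 4 (0.40, adjusted p = 0.082, and 0.38, adjusted p = 0.096) or replicate 1 of Helicon 4-neg (0.30, adjusted p = 0.16). At 24 h and 1 µM, ID2 (0.31, adjusted p = 0.025) lost its call without replicate 1 or 2 of Helicon 4 or replicate 2 or 3 of Helicon 4-neg (0.28 to 0.31, adjusted p from 0.061 to 0.09) and without the collagen-rich ones (0.28, adjusted p = 0.062). MSX2 at 3 µM and 48 h was at -0.48 (adjusted p = 0.0012) with all libraries and at -0.17 (adjusted p = 0.54) without the collagen-rich ones.

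Against DMSO, Helicon 4 at 1 µM had 4 genes higher and 1 lower at 24 h (8.59% and 10.3% of all genes) and 6 higher and 2 lower at 48 h (19.7% and 21.2%). At 3 µM it had 5 higher and 2 lower at 24 h (20.8% and 24.4%) and 8 higher and 2 lower at 48 h (30.8% and 28.5%). At 10 µM and 48 h it had 5 higher and 2 lower (31.1% and 28.7%). All 10 genes were thus called at 3 µM and 48 h, but without the collagen-rich libraries ID4 (0.41, adjusted p = 0.14) and SMAD6 (0.30, adjusted p = 0.17) were not, and SMAD9 (0.24, adjusted p = 0.048) lost its call without each of 16 libraries in turn (0.15 to 0.27, adjusted p from 0.051 to 0.25). Along the Helicon 4 doses at 48 h, 3 genes had a rising and 3 a falling slope (16.2% and 15.1% of all genes). The rising slopes were those of ID2 (0.44), ID3 (0.32) and SMAD7 (0.65), although the means of ID2 and ID3 were highest at 3 µM. The falling slopes were those of SMAD9 (-0.57), BAMBI (-0.41) and INHBB (-1.25).

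At 24 h the slopes along the Helicon 4 doses were called rising for SMAD7 and SMAD6 and falling for MSX2, SMAD9 and BAMBI (15.7% and 20.2% of all genes), and each of these calls depended on single libraries. The 3 falling slopes lost their calls without the collagen-rich libraries: MSX2 (-0.45, limma adjusted p = 0.018, with all libraries) was then at -0.18 (adjusted p = 0.48), SMAD9 (-0.30, adjusted p = 0.021) at -0.34 (adjusted p = 0.089) and BAMBI (-0.18, adjusted p = 0.0095) at -0.18 (adjusted p = 0.058). MSX2 also lost its call without replicate 2 of 10 µM Helicon 4 (-0.32, adjusted p = 0.1), and BAMBI without replicate 3 (-0.12, adjusted p = 0.079). SMAD9 lost it without replicate 1 (-0.29, adjusted p = 0.056) or 3 (-0.30, adjusted p = 0.054) of 10 µM or replicate 2 of 1 µM (-0.22, adjusted p = 0.12). SMAD7 (0.38, adjusted p = 0.019) lost its call without replicate 1 of 10 µM (0.28, adjusted p = 0.11) or replicate 1 (0.35, adjusted p = 0.057) or 2 (0.33, adjusted p = 0.074) of 1 µM. SMAD6 (0.27, adjusted p = 0.049) lost it without each of 18 libraries of the 24 h fit (0.18 to 0.30, adjusted p from 0.05 to 0.23), and with the replicate number as a block (0.27, adjusted p = 0.056).

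Helicon 4-neg below 10 µM moved few of the genes before 48 h. Against DMSO at 6 h, 0 of 8 genes tested passed in limma at 1 µM (0.00766% of all genes higher, 0.023% lower) and 0 of 8 at 3 µM (0.781% and 0.965%), with 1 higher at an unadjusted p under 0.05 at 1 µM, 0 at 3 µM, and 0 in edgeR at both. At 24 h, 0 of 10 passed at 1 µM, where 0% of all genes were called in limma, with 0 at an unadjusted p under 0.05 and 0 in edgeR. At 3 µM and 24 h, SMAD9 was lower (1.93% of all genes) and 0 genes were higher (0.431%; 1 at an unadjusted p under 0.05, 0 in edgeR). SMAD9 was at -0.49 (adjusted p = 0.013) there, and at -0.40 (adjusted p = 0.12) without the collagen-rich libraries; its call was also lost without replicate 2 or 3 of Helicon 4-neg or DMSO replicate 1 (-0.47 to -0.40, adjusted p from 0.065 to 0.095). At 48 h, ID3 was lower at 1 µM (-0.26, adjusted p = 0.0017; 10.3% of all genes lower, 14% higher). At 3 µM and 48 h, 4 genes were lower (12.5% of all genes; 15.8% higher): ID3 (-0.46, adjusted p = 4.2e-05), ID2 (-0.46, adjusted p = 0.0014), ID1 (-0.43, adjusted p = 0.038) and INHBB (-0.28, adjusted p = 0.049). Without the collagen-rich libraries, which leaves 1 library at 3 µM, only ID3 of these was called, with ID2 at -0.33 (adjusted p = 0.1), ID1 at -0.39 (adjusted p = 0.19) and INHBB at -0.40 (adjusted p = 0.054). ID1 also lost its call without replicate 2 or 3 of Helicon 4-neg or DMSO replicate 3 (-0.37 to -0.28, adjusted p from 0.11 to 0.23), and INHBB without each of 14 libraries of the 48 h fit (-0.30 to -0.20, adjusted p from 0.053 to 0.24).

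**Figure D4:**
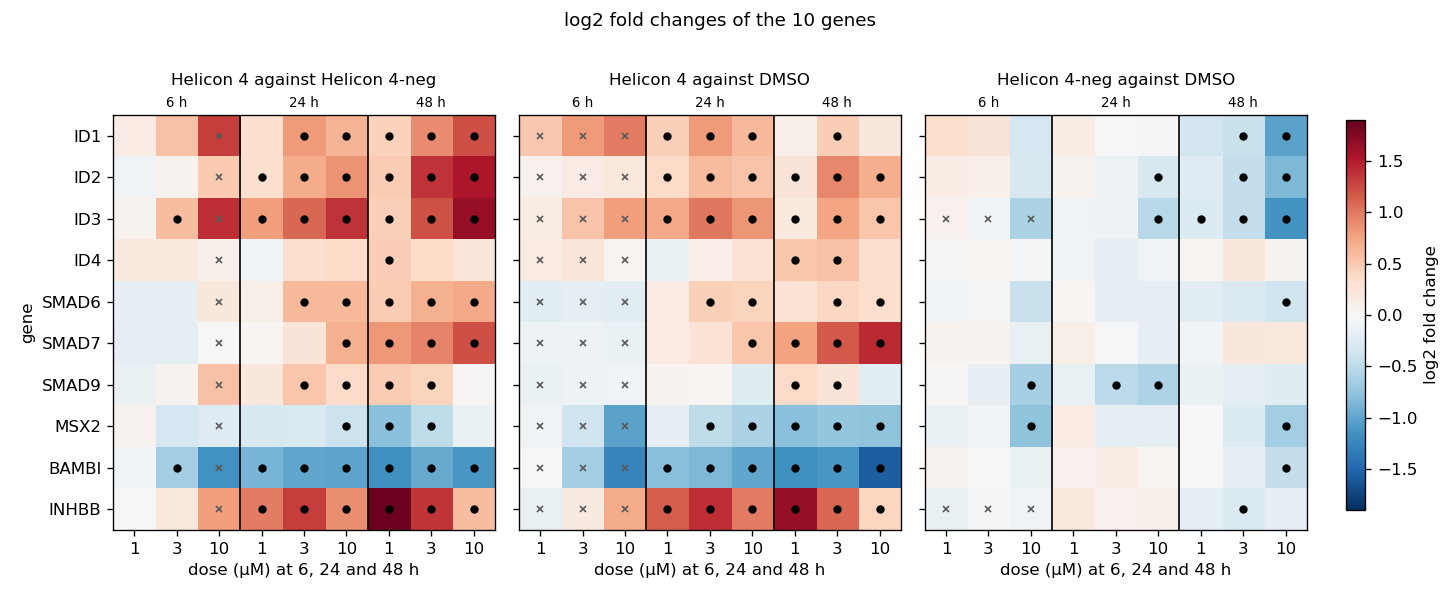
Log2 differences of the 10 genes (rows) by dose and time (columns) for Helicon 4 against Helicon 4-neg, Helicon 4 against DMSO and Helicon 4-neg against DMSO; red is higher and blue lower in the first-named group, dots mark calls of limma at adjusted p below 0.05 and crosses comparisons given with no test. BAMBI is blue and INHBB red in every 24 and 48 h column of Helicon 4, and at 10 µM and 48 h ID1, ID2 and ID3 are blue for Helicon 4-neg against DMSO.

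The genes also drifted with time in DMSO. At 24 h against 6 h, 4 of 8 genes tested were lower (10.5% of all genes) and 0 higher (9.88%; 0 at an unadjusted p under 0.05, 0 in edgeR): SMAD9 (-0.78, adjusted p = 4.4e-09), MSX2 (-0.58, adjusted p = 0.00034), BAMBI (-0.18, adjusted p = 0.014) and SMAD6 (-0.31, adjusted p = 0.039). SMAD6 lost its call without the collagen-rich libraries (-0.28, adjusted p = 0.1) and without each of the 24 h libraries or replicate 1 or 2 at 6 h (-0.33 to -0.27, adjusted p from 0.061 to 0.14), and BAMBI without DMSO replicate 1 at 6 h (-0.16, adjusted p = 0.065). At 48 h against 24 h, 5 genes were higher (22.5% of all 13782 genes tested were) and 1 lower (28.4%). ID3 averaged 54.2 at 48 h and 44.7 at 24 h (log2 difference 0.27, limma adjusted p = 8.2e-05), and ID2 averaged 15.5 at 48 h and 11.6 at 24 h (0.39, adjusted p = 0.00044). ID1 (0.44, adjusted p = 0.013) and SMAD9 (-0.29, adjusted p = 0.0074) lost their calls without the collagen-rich libraries (0.36, adjusted p = 0.083, and -0.20, adjusted p = 0.18). ID1 also lost it without DMSO replicate 2 at 24 h (0.39, adjusted p = 0.054) or replicate 3 at 48 h (0.29, adjusted p = 0.15), INHBB (0.33, adjusted p = 0.013) without replicate 3 at 24 h (0.20, adjusted p = 0.18), and BAMBI (0.14, adjusted p = 0.032) without each of the 24 h libraries or replicate 2 at 48 h (0.09 to 0.14, adjusted p from 0.057 to 0.23). Each compound was set against DMSO of its own time.

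Between the times, the signed log2 difference of Helicon 4 from Helicon 4-neg at 10 µM was called higher at 48 h than at 24 h for 2 of the 10 genes and lower for 0, where 6.99% and 5.86% of all genes were called (at an unadjusted p under 0.05, 1 was lower; in edgeR, 0). Against DMSO of the same time at 10 µM, ID3 was at 0.84 at 24 h and 0.52 at 48 h with Helicon 4. With Helicon 4-neg it was at -0.52 and -1.14. ID2 was at 0.54 and 0.69 with Helicon 4, and at -0.31 and -0.85 with Helicon 4-neg. At 48 h against 24 h, the log2 difference between Helicon 4 and Helicon 4-neg was larger by 0.69 for ID2 (SE 0.13, adjusted p = 0.00016) and by 0.29 for ID3 (SE 0.082, adjusted p = 0.011). ID3 was at 0.32 (adjusted p = 0.052) without the collagen-rich libraries and lost its call, and INHBB, positive at both times, was then called lower at 48 h (-0.68, adjusted p = 0.032).

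Beyond the 10 genes, other members of the pathway were compared between Helicon 4 and Helicon 4-neg at 10 µM and 48 h, where 26.7% of all genes were called higher and 27% lower. Of these lists, 3 of 8 BMP ligands were higher and 3 lower. BMP3, an atypical family member that opposes other BMPs, was at 4.12 ± 1.1 with Helicon 4, against 0.0710 ± 0.12 with Helicon 4-neg. BMP6 was at 1.92 ± 0.10, against 5.32 ± 0.93, and GDF11 at 58.7 ± 5.4, against 30.1 ± 3.2 (SD, n = 3 each). Of 15 BMP and activin receptors and co-receptors, 5 were higher and 4 lower, counts near those shares, among them the co-receptor RGMB at 7.20 ± 0.48 with Helicon 4, against 17.8 ± 1.1 with Helicon 4-neg. Of 5 signal-carrying SMADs other than SMAD9, 1 was higher at 48 h, SMAD2, which carries activin and TGF-β signals, at 131 ± 2.5 with Helicon 4, against 99.7 ± 3.1 with Helicon 4-neg.

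Of 8 extracellular antagonists, 3 were higher and 3 lower at 48 h, beside 26.7% and 27% of all genes. GREM1, which binds BMPs and is known from the crypt niche, was at 10.3 ± 0.84 with Helicon 4, against 19.5 ± 0.35 with Helicon 4-neg, and SOSTDC1 was at 9.66 ± 0.95, against 4.74 ± 0.70. Of 11 intracellular brakes, 4 were higher at 48 h and 5 at 24 h, beside 26.7% and 25.1% of all genes. At 24 h TOB1 was at 55.4 ± 2.1, against 30.4 ± 0.76, and SKIL, which binds SMADs as a co-repressor, at 34.4 ± 2.3, against 19.7 ± 0.63. Of 14 other BMP-SMAD targets, 3 were higher and 7 lower at 48 h, beside 26.7% and 27% of all genes, with a median log2 difference of -0.25, against 0.01 over all genes. LRIG1, a membrane protein of intestinal stem cells, was at 70.4 ± 2.6, against 18.1 ± 1.5, ATOH8 at 1.33 ± 0.16, against 0.143 ± 0.16, and RUNX2, the osteoblast factor, at 0.411 ± 0.10, against 5.5 ± 0.80.

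Of 12 targets of TGF-β and activin, 4 were higher and 1 lower at 48 h, beside 26.7% and 27% of all genes (6 and 1 without the collagen-rich libraries), with FN1 at 30.1 ± 3.5 with Helicon 4, against 13.1 ± 2.8 with Helicon 4-neg. INHBE, an activin subunit, was lower at 24 h, at 1.3 ± 0.43, against 2.06 ± 0.27. At 48 h INHBE, 1 of 2 subunits of this list tested, was at 2.0 ± 0.22, against 2.71 ± 0.42 (-0.30, SE 0.12, limma adjusted p = 0.042), and it lost its call without the collagen-rich libraries at both times. Of 7 helix-loop-helix factors that ID proteins can oppose directly or through their partners, 6 were lower at 48 h, beside 27% of all genes. Against DMSO at 10 µM and 48 h, 3 of the 7 were lower with Helicon 4, beside 28.7% of all genes, and 2 were lower and 1 higher with Helicon 4-neg, beside 8.55% and 10.4%. ASCL2, the crypt stem cell factor and a Wnt target, was at 10.4 ± 0.098 with Helicon 4, against 33.9 ± 3.2 with Helicon 4-neg, a log2 difference of -1.61 (SE 0.11, limma adjusted p = 2e-11). TCF3, an E protein that ID proteins bind, was at 63.8 ± 4.9, against 92.7 ± 5.2 (-0.53, SE 0.081, adjusted p = 6.4e-06).

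Markers of other cell types were compared in the same libraries, where 26.7% of all genes were called higher and 27% lower. Of 7 fibroblast markers, 3 were higher with Helicon 4 than with Helicon 4-neg at 10 µM and 48 h, and their summed level was 29.2 to 34.8 with Helicon 4, against 7.21 to 11.1 with Helicon 4-neg. COL3A1 made up much of it, at 17.6 ± 2.3, against 2.65 ± 0.25, while COL1A2 was at 0.774 ± 0.68, against 0.406 ± 0.70. Of 3 leukocyte markers with a row, 2 were higher and 1 lower, with sums of 14.2 to 16.4, against 11.3 to 12.9. Of 7 intestinal markers 3 were higher and 1, CDX2, lower, at 2320 ± 4.5, against 3530 ± 54. Of 5 neuroendocrine markers, 1 was higher and HDC lower, at 12.3 ± 1.5, against 135 ± 3.5. The part of these markers in the differences of the 10 genes was not tested.

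Across the 21 group means, which share libraries, doses and times, ID1 and ID3 followed each other most closely of the 10 genes (Pearson r = 0.956), and ID2 was nearest to SMAD6 (r = 0.883) and SMAD7 (r = 0.832). The lowest value was that of BAMBI with INHBB (r = -0.805). Among 9152 other genes with a mean log2 level of at least 3, those most like ID3 were TOR1AIP1 (r = 0.827), RNF8 (0.825) and COIL (0.816), and those most like ID1 were COIL (0.814), DNAJB6 (0.813) and SERTAD1 (0.807). Those most like ID2 were DOK4 (0.911), EFNA1 (0.907) and CRYL1 (0.904). These correlations describe 21 means and carry no test.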

How the data were processed

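Poly(A) RNA from 63 COLO320DM libraries was measured. Per the submitters' processing notes, the authors worked on build GRCh38 with STAR 2.7.7a, featureCounts, Subread 2.4.2, Trimmomatic 0.39 and edgeR 4.0.2. Their annotation, strand setting and filter on genes are not given in the sources used here. The deposited table holds a signal per gene and library, a normalised value that behaves as CPM divided by a library factor. Dividing by the smallest step of a library gave whole reads for 100% of values, to within 0.01 read. From these values, limma 3.58.1 in R 4.3.3 was fitted with its trend option on log2(value + 1), 1 coefficient per group, for the 21 libraries of each time, or all 63 for comparisons between times. A gene entered a fit if 3 or more of its libraries reached a value of 0.5 (13057, 13213 and 13478 at 6, 24 and 48 h, and 13782 over all times). P-values are two-sided, Benjamini-Hochberg adjusted over all genes kept, and called below 0.05. Intervals are 95%. edgeR 4.0.16 quasi-likelihood tests on recovered reads served as an alternative.

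The 10 genes and all gene lists were chosen with earlier results of these data known. Named beside the 10 genes are, per list, up to 3 called genes with the largest change between the compounds at 10 µM, and the 3 genes most like each of ID1, ID2 and ID3. Of 63 replicate pairs, 0 were identical, and their chi-square per gene ran from 1.94 to 29.5. Coordinates of start sites and promoter sequences are from RefSeq (GRCh38.p14), which had a window for all 10 genes. The fits were tested on simulated data. Other alternatives were a pseudocount of 0.1, no filter, robust estimation, median centring, 1 fit over the 3 times, a replicate block, each library left out, and, chosen after seeing the data, the 15 libraries with COL1A2 of 5 or more left out.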

Additional observations from a re-analysis of the deposited data

Results flagged for a closer look

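The difference between Helicon 4 and Helicon 4-neg at 10 µM was larger at 48 h than at 24 h for ID2 and ID3 (a test of the difference between times in 1 fit of all libraries). For ID2 it grew by 0.69 log2 units (SE 0.13, 95% interval 0.42 to 0.96, limma adjusted p = 0.00016). For ID3 it grew by 0.29 (SE 0.082, interval 0.13 to 0.46, adjusted p = 0.011), and 6.99% of all genes were called in that direction. Without the collagen-rich libraries, of which the 24 h groups held 4 and the 48 h groups none, ID3 was at 0.32 (adjusted p = 0.052) and lost its call, and INHBB was at -0.68 (adjusted p = 0.032) and was called lower at 48 h than at 24 h. ID1 was at 0.58 (adjusted p = 0.065). No other gene of the 10 passed. Against DMSO of the same time at 10 µM, ID3 was at 0.84 at 24 h and 0.52 at 48 h with Helicon 4. With Helicon 4-neg it was at -0.52 and -1.14. ID2 was at 0.54 and 0.69 with Helicon 4, and at -0.31 and -0.85 with Helicon 4-neg.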

How the results depend on the processing

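No call of the 10 genes turned to the opposite call under the alternatives run. Counts of genes called at 10 µM stayed within 1.5 times of the value reported, with these exceptions. Leaving out the libraries with COL1A2 of 5 or more, an alternative chosen after seeing the data, gave 1 gene lower at 24 h in each of Helicon 4 against Helicon 4-neg, Helicon 4 against DMSO and Helicon 4-neg against DMSO, from fewer libraries. It also gave 1 gene higher and 1 lower in the difference between the compounds at 48 h minus that at 24 h, where 2 and 0 are reported. Leaving out 1 library gave 1 to 2 genes lower in Helicon 4-neg against DMSO at 6 h and 1 to 2 lower in Helicon 4 against Helicon 4-neg at 24 h. The mean residual correlation of same-numbered libraries was -0.042, 0.0056 and -0.0498 at 6, 24 and 48 h. These means cannot show whether same-numbered libraries shared a culture. The replicate block ended 9 calls and gave 1 new call. Among the calls it ended was ID2 in Helicon 4-neg against DMSO at 10 µM and 24 h (-0.31, limma adjusted p = 0.052). Median centring ended 6 calls and gave 4, a pseudocount of 0.1 ended 3 and gave 1, no filter ended 4, robust estimation gave 2, the fit of all libraries ended 3 and gave 8, and edgeR on recovered reads ended 3 and gave 3. Leaving out each library in turn ended 146 calls and gave 27, counted over all of these fits together. Leaving out the COL1A2 libraries ended 24 and gave 3. The cause was not tested. With 4 to 75 reads per library, SMAD7 is limited by depth.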
